A study of Ovis aries with 6 samples.

Results

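The ovine miRNAs miR-3955, miR-3956, miR-3957, miR-3958 and miR-3959 were followed in male fetal rumen through both arms of each hairpin, the 5p strand and the 3p strand. They were taken by name alone, as every listed entry with one of these numbers, which gave 10 of the 1253 miRNAs listed. Of the 1253 entries, 152 carry a sheep miRNA name and 1101 are newly predicted. The UN group held 3 libraries from fetuses of ewes on restricted feeding, labelled TR, and the CON group 3 libraries from fetuses of normally fed ewes. All 6 are wild-type Hu sheep, and the labels give day 115 of gestation for both groups. In the study's methods feed restriction began on that day and tissue was collected later, and the fetuses were male. The series title and design text name jejunum and ileum, but each of the 6 libraries is labelled rumen, and the library labels were followed. A library was made from 1 fetus, the labels do not say whether the fetuses of a group had separate dams, and bulk rumen tissue cannot tell fewer cells of a type from less RNA per cell.

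The callipyge locus is the sheep form of the imprinted DLK1-DIO3 domain, named after an inherited overgrowth of hindquarter muscle. Its protein-coding genes, among them DLK1, are expressed from the paternal chromosome, and its long noncoding RNAs and a large cluster of miRNAs from the maternal chromosome. An animal miRNA is excised from a hairpin by Drosha and Dicer as a short duplex of a 5p and a 3p strand, of which usually a single strand is retained in an Argonaute protein. Bases 2 to 8 of the retained strand, the seed, pair with target mRNAs. No targets of the 5 miRNAs are described here.

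The 10 mature strands are shown because the arms, and not the hairpins, are what the reads distinguish. The letters come from the study's own list of miRNA sequences, run 5′ to 3′, and have the seed in capitals.
oar-miR-3955-5p: uUUGAUGGcugauccucucacu
oar-miR-3955-3p: uGGGAUUUuaguccaucauag
oar-miR-3956-5p: gUACGUGGaugcugaaggucaga
oar-miR-3956-3p: uCUGACCUuccugcaucccguuc
oar-miR-3957-5p: cUCGGAGAguggagcugugggugu
oar-miR-3957-3p: aCGCACAGcaccucacugagcu
oar-miR-3958-5p: aGGUUGUCcgugauguauuugc
oar-miR-3958-3p: aGAUAUUGcacgguugaucucu
oar-miR-3959-5p: gGUUGAUCagagaacauacauu
oar-miR-3959-3p: uGUAUGUCaacugauccacagu

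The 10 seeds were all different, and none was shared with any other of the 1253 entries, so that no grouping by seed was possible. Of all entries, 49.2% had a seed that no other entry had. Of the 10 strands, 4 began with U, 3 with A, 2 with G and 1 with C, against 36.6% of all entries beginning with U. The 2 arms of each hairpin formed 15 to 19 base pairs with each other when folded as a duplex in silico. This left 2 or 3 unpaired bases at the 3′ end of each 3p strand and 2 at that of each 5p strand other than miR-3956-5p, which had 0. At the 5′ end of the 5p strand, 2 bases of miR-3955, 2 of miR-3956 and 1 of miR-3959 were unpaired as well, so that these 3 duplexes did not end in a plain 3′ overhang on that side. The miR-3956 duplex had the most pairs, 19, with 10 in the longest run, and the lowest computed energy of the 5, -30.2 kcal/mol, against -23.1 kcal/mol for miR-3957 and -15.6 to -16.8 kcal/mol for the other 3.

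miR-3958-3p was nearest in sequence to miR-369-3p of the same locus, from which it differed by 5 edits, and miR-3958-5p to miR-494-5p, from which it differed by 6 edits. Both relatives are shown so that the letters can be compared, and neither shares its seed with its miR-3958 strand.
oar-miR-369-3p: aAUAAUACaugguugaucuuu
oar-miR-494-5p: aGGUUAUCcguguugucuucucu

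All 5 hairpins lie on sheep chromosome 18 in the RefSeq annotation, among 50 other hairpins of the locus list, a list of DLK1-DIO3 miRNA names written from general knowledge. They do not lie next to each other. Along the chromosome miR-3955 is the 9th of the 55 hairpins, between miR-370 and miR-379. miR-3958 is the 24th, between miR-495 and miR-376e, and miR-3956 the 32nd, between miR-1185 and miR-381. miR-3959 is the 38th, between miR-655 and miR-487a, and miR-3957 the 50th, between miR-541 and miR-409. Their levels did not follow position. By summed arms, miR-3959 ranked 5th and miR-3958 9th of the 55 hairpins, while miR-3955 ranked 33rd, miR-3957 41st and miR-3956 43rd.

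**Figure D1:**
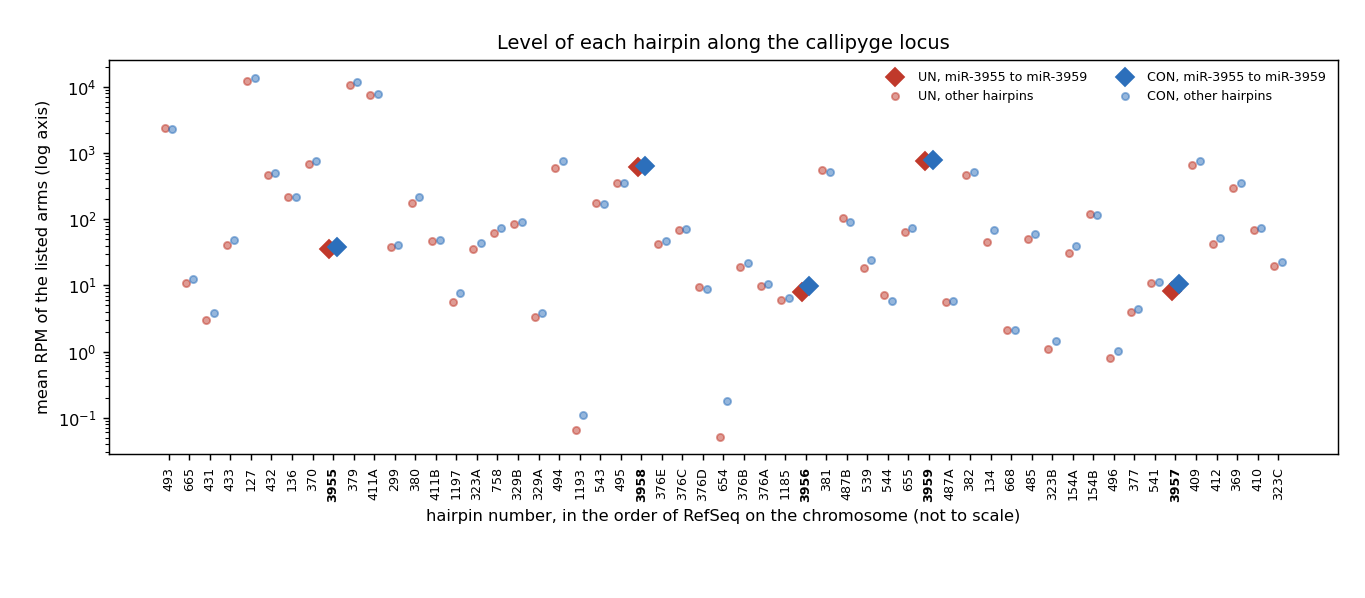
Mean RPM of each hairpin of the locus list, both arms summed, on a log axis, against its order along chromosome 18 in RefSeq, with UN and CON libraries marked separately (mean of 3 libraries each). miR-3958 and miR-3959 stand among the high hairpins, miR-3955 nearer the middle, and miR-3956 and miR-3957 lower. Along the chromosome miR-3955 is at place 9, miR-3958 at 24, miR-3956 at 32, miR-3959 at 38 and miR-3957 at 50 of 55.

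The UN libraries held 18731340, 20480062 and 27059374 reads assigned to listed miRNAs, and the CON libraries 24598457, 18584326 and 35555822. Values are reads per 1000000 assigned reads (RPM), and 1 read was worth 0.0281 to 0.0538 RPM. miR-143, a miRNA of smooth muscle, took 37.7%, 43.8% and 48.5% of reads in the UN libraries and 42.3%, 29.5% and 50.0% in the CON libraries. miR-200b, found in epithelium, had 5523, 4358 and 4910 RPM in the UN libraries and 6937, 7397 and 6477 RPM in the CON libraries, with no overlap of the groups. By limma the log2 fold change of miR-200b was -0.50 (SE 0.18), with p of 0.016 unadjusted and 0.84 adjusted. The 3 epithelial markers miR-200a, miR-200b and miR-200c summed to 11663 to 14196 RPM in UN and 14495 to 18317 RPM in CON, and these sums also stayed apart with miR-143 reads removed. Of the 6 markers the other 5 overlapped between the groups in RPM, and with miR-143 reads removed miR-200a was separated in the same direction too. miR-133 of striated muscle had 160 to 280 RPM and miR-150 of blood cells 3.36 to 6.02 RPM over the 6 libraries. The markers of smooth muscle and epithelium were thus at far higher levels than those of striated muscle and blood. Since RPM is a share of all assigned reads, the RPM of every other entry depends on that of miR-143.

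The 5 miRNAs together contributed 1560, 1458 and 1243 RPM in the UN libraries and 1608, 1814 and 1017 RPM in the CON libraries. The means were 1420 ± 162 RPM in UN and 1480 ± 413 RPM in CON (SD, n = 3 each), so the groups overlapped. This was 0.102% to 0.181% of the reads of a library. Nearly all of it came from miR-3959, with 53.1% of the reads of the 10 strands, and miR-3958, with 43.1%. miR-3955 gave 2.49%, miR-3956 0.675% and miR-3957 0.663%. The remaining 92 entries of the locus list took 2.96% to 5.13% of reads, led by miR-127, miR-379-5p and miR-411a-5p with means of 13062, 10946 and 7341 RPM over the 6 libraries.

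miR-3959-5p was the strand with the most reads of the 10, at rank 71 of the 1253 entries by mean level. It had 13781, 14867 and 15487 reads in the UN libraries, against 19766, 16265 and 17986 reads in the CON libraries. In RPM these were 736, 726 and 572 in UN and 804, 875 and 506 in CON. The lowest and the highest value both belonged to CON libraries, and the UN values lay between them. The mean was 678 ± 91.6 RPM in UN and 728 ± 196 RPM in CON (SD, n = 3 each; exact two-sided permutation p = 0.6).

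miR-3958-3p followed at rank 77, with 12962, 12314 and 15474 reads in the UN libraries and 16822, 14460 and 14874 reads in the CON libraries. Its levels of 692, 601 and 572 RPM in UN lay inside the CON range of 684, 778 and 418 RPM. The mean was 622 ± 62.6 RPM in UN and 627 ± 187 RPM in CON (SD, n = 3 each; exact two-sided permutation p = 1.0).

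The other strand of miR-3959, miR-3959-3p, was lower, at rank 161, with 75.1, 75.0 and 51.4 RPM in UN and 68.8, 82.4 and 44.6 RPM in CON. It was nonetheless above both strands of miR-3955, miR-3956 and miR-3957 in every library. miR-3955-5p, at rank 202, had 34.3, 36.4 and 26.5 RPM in UN and 31.3, 48.6 and 23.2 RPM in CON, with 642 to 903 reads per library. Its partner miR-3955-3p had 3.79, 3.27 and 2.37 RPM in UN and 3.33, 5.17 and 1.35 RPM in CON. For these 3 strands too the UN values lay inside the CON range.

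miR-3957-5p had 4.86, 5.52 and 8.28 RPM in UN and 8.09, 10.4 and 5.29 RPM in CON, at rank 273. miR-3957-3p had 1.92, 2.15 and 2.18 RPM in UN and 2.72, 2.58 and 2.22 RPM in CON. These were 36, 44 and 59 reads in UN and 67, 48 and 79 reads in CON, and the highest UN library lay only just under the lowest CON library. miR-3958-5p, the rare strand of its hairpin, had 28, 29 and 48 reads in UN and 30, 43 and 30 reads in CON. In RPM it stood at 1.49, 1.42 and 1.77 in UN and 1.22, 2.31 and 0.844 in CON, again with UN inside the CON range.

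miR-3956-5p had 201, 139 and 167 reads in the UN libraries and 119 and 158 reads in CON replicates 1 and 2, with the most reads in CON replicate 3. Its levels were 10.7, 6.79 and 6.17 RPM in UN and 4.84, 8.50 and 15.3 RPM in CON. A single library, CON replicate 3, held the highest value. miR-3956-3p was the rarest of the 10, at rank 675, with 0, 1 and 3 reads in UN and 8, 7 and 18 reads in CON. Thus 9 of the 10 strands had reads in all 6 libraries, and miR-3956-3p in 5. The count of 0 in UN replicate 1 allows up to 0.160 RPM (3 reads).

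**Figure D2:**
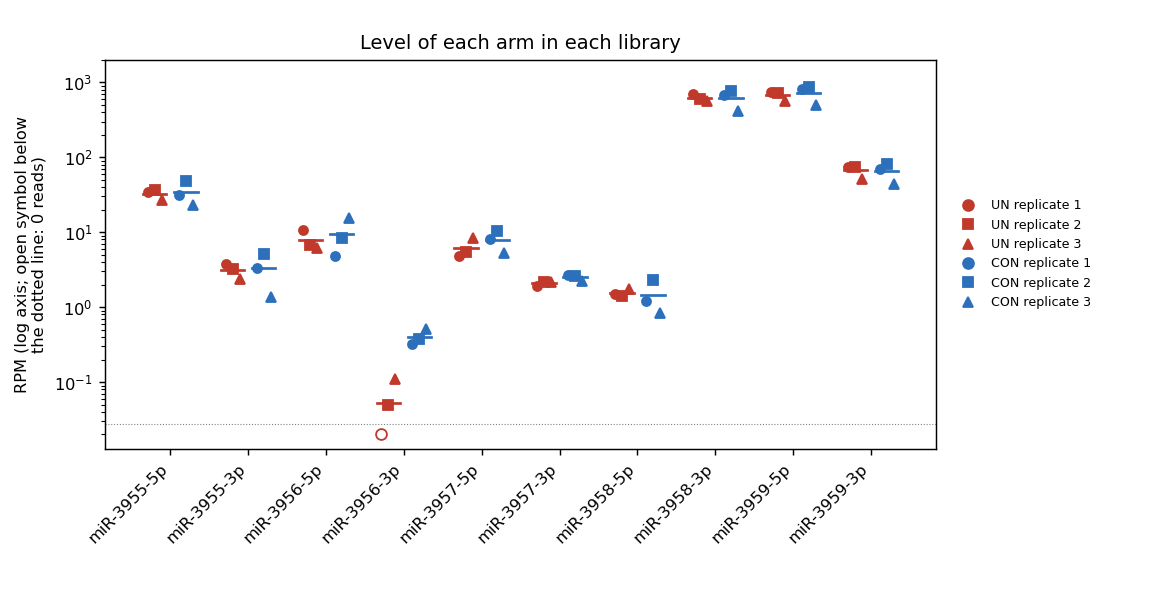
RPM of each of the 10 strands in each library on a log axis, UN left of CON, with a line at the mean of each group (n = 3 libraries each) and an open symbol for 0 reads. miR-3958-3p and miR-3959-5p lie between 418 and 875 RPM, and miR-3956-3p lies at 0.506 RPM or less in every library, with 0 in UN replicate 1.

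In the order of means over the 6 libraries, miR-3959-5p and miR-3958-3p lay within each other's spread, and so did miR-3956-5p and miR-3957-5p. miR-3955-3p, miR-3957-3p and miR-3958-5p were also near neighbours, with ranges that overlapped. Of the 10 strands 7 were highest in CON replicate 2 and 6 were lowest in CON replicate 3, and of the 92 other locus entries 62 and 55. Over all 1253 entries 573 were highest in CON replicate 2 and 236 lowest in CON replicate 3. CON replicate 2 had the smallest and CON replicate 3 the largest share of miR-143 reads of the 6 libraries. With miR-143 reads removed from the total, 2 of the 10 strands were highest in CON replicate 2 and 6 lowest in CON replicate 3. These were 23 and 38 of the 92 other locus entries, and 259 and 152 of all 1253 entries. For miR-3956-5p and miR-3956-3p, CON replicate 3 was instead above CON replicates 1 and 2 in RPM. Of the 92 other locus entries 5 had that pattern, and of the 78 with at least 10 reads per library on average 3 had it.

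The feed-restriction comparison asked whether the level of any strand differed between UN and CON. By limma on log2(RPM + 1) over the 567 miRNAs that passed a filter on low reads, 9 of the 10 strands were tested, and miR-3956-3p was removed by the filter. Of the 9, 0 had an adjusted p under 0.05 in either direction, and the background was 0.0% of all 567 tested. At an unadjusted p under 0.05 the count was also 0 of 9, against 0.705% of all tested higher and 4.41% lower in UN. edgeR on the recovered reads also called 0 of the 9, at an adjusted and at an unadjusted p, against 0.176% of all tested higher in UN at an adjusted p, and 3.35% higher and 1.94% lower at an unadjusted p.

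None of the fitted changes was much larger than its standard error. The log2 fold change was -0.29 (SE 0.29) for miR-3957-5p, which is the largest change of the 9 in limma, and -0.18 (SE 0.20) for miR-3957-3p. It was -0.15 (SE 0.35) for miR-3956-5p, -0.07 (SE 0.24) for miR-3959-5p, 0.03 (SE 0.25) for miR-3958-3p and 0.10 (SE 0.23) for miR-3958-5p. The 95% intervals were not narrow. That of miR-3958-3p ran from -0.50 to 0.57 on the log2 scale, and that of miR-3959-5p from -0.60 to 0.45. In folds, the interval of miR-3958-3p ran from 0.705 to 1.48. The smallest adjusted p among the 9 was 0.85 by limma.

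The median log2 fold change was -0.03 over the 9 strands, -0.08 over the 78 other locus entries tested and -0.12 over all 567. The sign of the median of the 9 strands turned with the scaling. By limma after TMM scaling the medians were 0.08, 0.00 and -0.03, and with miR-143 reads removed 0.03, -0.04 and -0.08. The median over all tested entries thus stayed negative on these limma scales. In edgeR on the recovered reads it was above 0 as well, with medians of 0.13, 0.06 and 0.01. On the RPM scale 8 of the 10 means were lower in UN and 2 higher, and with miR-143 reads removed 5 were lower and 5 higher. No direction of the group of strands can be stated.

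**Figure D3:**
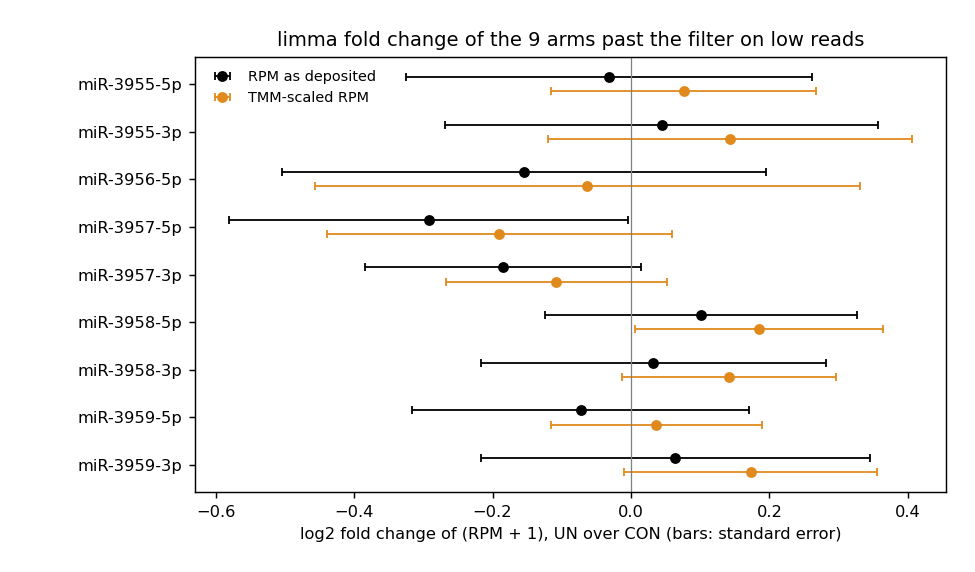
Log2 fold change of UN over CON with its standard error for the 9 strands tested, from limma on log2(RPM + 1), with RPM as deposited and after TMM scaling. On RPM as deposited the 9 values lie between -0.29 and 0.10 with standard errors of up to 0.35, and after TMM scaling 6 lie above 0 and 3 below.

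By rank of single libraries, 8 of the 10 strands overlapped between UN and CON, where 88.2% of all 1253 entries did. The other 2, miR-3956-3p and miR-3957-3p, had all 3 UN libraries below all 3 CON libraries, as did 9.66% of all entries. The epithelial marker miR-200b was lower in the same libraries, and its part in these separations was not tested. The reverse order was found for 0 of the 10 strands and for 2.15% of all entries. Both strands had an exact two-sided permutation p of 0.1, the smallest that 3 against 3 can give, and the other 8 had 0.5 to 1.0. The separation of miR-3957-3p ended when miR-143 reads were removed from the total (p = 0.3, exact permutation), whereas miR-3956-3p remained separated (p = 0.1, exact permutation), as did 7.58% of all entries in that direction and 3.75% in the other.

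miR-3956-3p had 0, 0.0488 and 0.111 RPM in the UN libraries and 0.325, 0.377 and 0.506 RPM in the CON libraries. Pooled over a group this was 4 of 66270776 reads, or 0.0604 RPM (exact 95% Poisson interval 0.0164 to 0.155), in UN. In CON it was 33 of 78738605 reads, or 0.419 RPM (0.288 to 0.589). The ratio of UN to CON was 0.144, with an exact 95% interval of 0.0371 to 0.405. PCR copies are not independent molecules, so these intervals cover counting error only and leave out the spread between fetuses.

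Without the filter on low reads, miR-3956-3p had a log2 fold change of -0.41 (SE 0.10) by limma. Its unadjusted p was 0.00097 in limma, and its p adjusted over the 1253 entries was 0.24. The small value belongs to the log2(RPM + 1) scale, which compresses levels far below 1 RPM. On the recovered reads edgeR gave -2.60 (unadjusted p = 0.0049, adjusted p = 0.75) and DESeq2 -2.65 (SE 1.14, unadjusted p = 0.020, adjusted p = 1.00). The strand was thus the only one of the 10 past an unadjusted p of 0.05 without the filter, and it was not past an adjusted p in any of the 3 tools. At an unadjusted p under 0.05, 3.43% of all entries were lower in UN by limma, 2.79% by edgeR and 0.958% by DESeq2. In the other direction, in which 0 of the 10 strands were called, the shares were 1.52% by limma, 2.71% by edgeR and 2.15% by DESeq2. At an adjusted p the highest shares were 0.0798% by edgeR and 0.16% by DESeq2, all of entries higher in UN. The study picked a miRNA named miR-3956 for RT-qPCR from these same libraries, so its direction here is no independent evidence. The study states that RT-qPCR bore out its sequencing, and its text gives no value for miR-3956. Its rule for calling in DESeq2 was a P under 0.05 with a limit on fold change, and it states no adjustment. The forward primer is shown because it tells which arm was meant.
forward primer of miR-3956: aacaagTCTGACCTTCCTGCA
Its capitals are the 15 bases that match bases 1 to 15 of miR-3956-3p, with T for U, and its longest match to any of the other 9 strands was 4 bases.

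The reads of a hairpin divide between its arms, and that share does not move with depth or with miR-143. Of the 5 hairpins 4 were read mostly from the 5p arm and 1, miR-3958, from the 3p arm. Over all 6 libraries the 5p arm had 10.8 reads for each 3p read in miR-3955, 35.9 in miR-3956, 3.03 in miR-3957 and 10.7 in miR-3959. In miR-3958 the 3p arm had 418 reads for each 5p read, the fifth most one-sided of the 47 hairpins with both arms listed. Of the other 42 hairpins of the locus list with both arms, 11 were mostly 5p and 31 mostly 3p, and their median imbalance was 20.9 to 1.

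miR-3957 had the most even arms of the 5. Its 5p share was 71.7%, 72.0% and 79.2% in the UN libraries and 74.8%, 80.1% and 70.4% in the CON libraries, with exact 95% intervals as wide as ±8.16 points. The means were 74.3% ± 4.24 in UN and 75.1% ± 4.84 in CON (SD, n = 3 each; exact permutation p = 0.9). For miR-3955 the 5p share was 90.04%, 91.7% and 91.8% in UN and 90.4%, 90.4% and 94.5% in CON (exact permutation p = 0.8). The 5p shares of miR-3959 averaged 91.0% ± 0.620 in UN and 91.8% ± 0.370 in CON (SD, n = 3 each; exact permutation p = 0.2). For miR-3958 the 5p share averaged 0.253% ± 0.0495 in UN and 0.225% ± 0.0628 in CON (SD, n = 3 each; exact permutation p = 0.5). In these 4 hairpins the groups overlapped.

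The arms of miR-3956 did not overlap between the groups. Its 5p share was 100% of 201 reads in UN replicate 1, where 0 reads of the 3p arm allow up to 1.49% (3 reads). It was 99.3% (exact 95% interval 96.1% to 99.98%) and 98.2% (94.9% to 99.6%) in UN replicates 2 and 3. In the CON libraries it was 93.7% (88.0% to 97.2%), 95.8% (91.5% to 98.3%) and 96.8% (94.98% to 98.1%). The intervals of UN replicates 2 and 3 overlapped those of all 3 CON libraries. That of UN replicate 1, from 98.18% to 100%, overlapped that of CON replicate 2, which ended at 98.28%, but not those of CON replicates 1 and 3. The means were 99.2% ± 0.888 in UN and 95.4% ± 1.57 in CON (SD, n = 3 each), a difference of 3.76 points with an exact two-sided permutation p of 0.1. Of the 47 hairpins, 8.51% had all UN libraries above all CON libraries and 4.26% all below. The 3p reads that set this share are the same reads as those of the comparison of miR-3956-3p above.

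**Figure D4:**
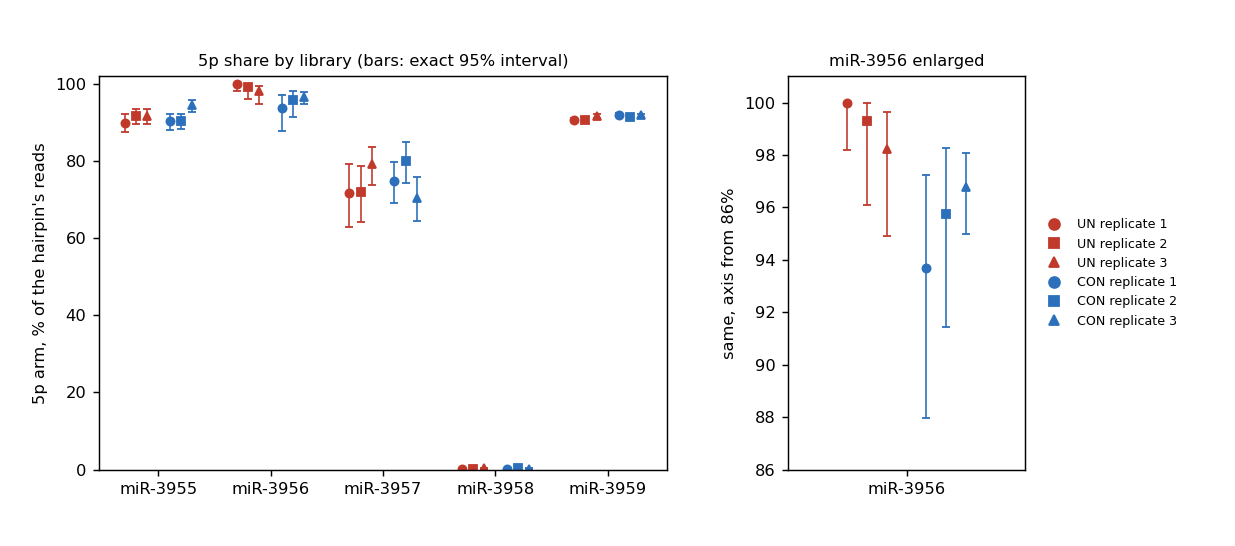
Share of the reads of each hairpin that come from its 5p arm, in percent, for each library, UN left of CON, with exact 95% binomial intervals, and miR-3956 enlarged at the right on an axis that does not start at 0. miR-3958 lies at 0.309% or less in every library and the other 4 hairpins above 70%, and only for miR-3956 do the UN points, at 98.2% or more, lie above all CON points, at 96.8% or less.

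To set each strand against its own locus, its reads were divided by the reads of the other 92 locus entries in the same library. The 5 miRNAs made up 3.38%, 3.77% and 3.48% of all locus reads in the UN libraries and 3.50%, 3.42% and 3.32% in the CON libraries. The means were 3.54% ± 0.200 in UN and 3.41% ± 0.0915 in CON (SD, n = 3 each). The spread over the 6 libraries fell for 7 of the 10 strands on this scale. The coefficient of variation was 5.53% per locus read, against 19.9% in RPM, for miR-3958-3p, and 6.53% against 19.8% for miR-3959-5p. With miR-143 reads alone removed from the total, the spread also fell for 7 of the 10, and the coefficient of variation was 11.2% for both miR-3958-3p and miR-3959-5p. For miR-3956-5p the coefficient went the other way, at 62.4% per locus read against 43.6% in RPM.

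Per 1000000 reads of the other locus entries, miR-3958-3p had 15516, 16142 and 16605 reads in the UN libraries and 15429, 15175 and 14110 in the CON libraries. Every UN library was above every CON library, with means of 16088 ± 546 in UN and 14904 ± 700 in CON (SD, n = 3 each; exact two-sided permutation p = 0.1). Of all entries 3.59% had this order on that scale. The gap between the lowest UN and the highest CON library was small, and in RPM the groups overlapped. miR-3959-5p, at 16497, 19489 and 16619 in UN and 18129, 17069 and 17062 in CON, overlapped on this scale as well. miR-3956-5p had 241, 182 and 179 in UN and 109, 166 and 515 in CON, and miR-3956-3p had 0, 1.31 and 3.22 in UN and 7.34, 7.35 and 17.1 in CON. For miR-3956-3p the UN libraries again lay below the CON libraries, as for 6.62% of all entries.

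**Figure D5:**
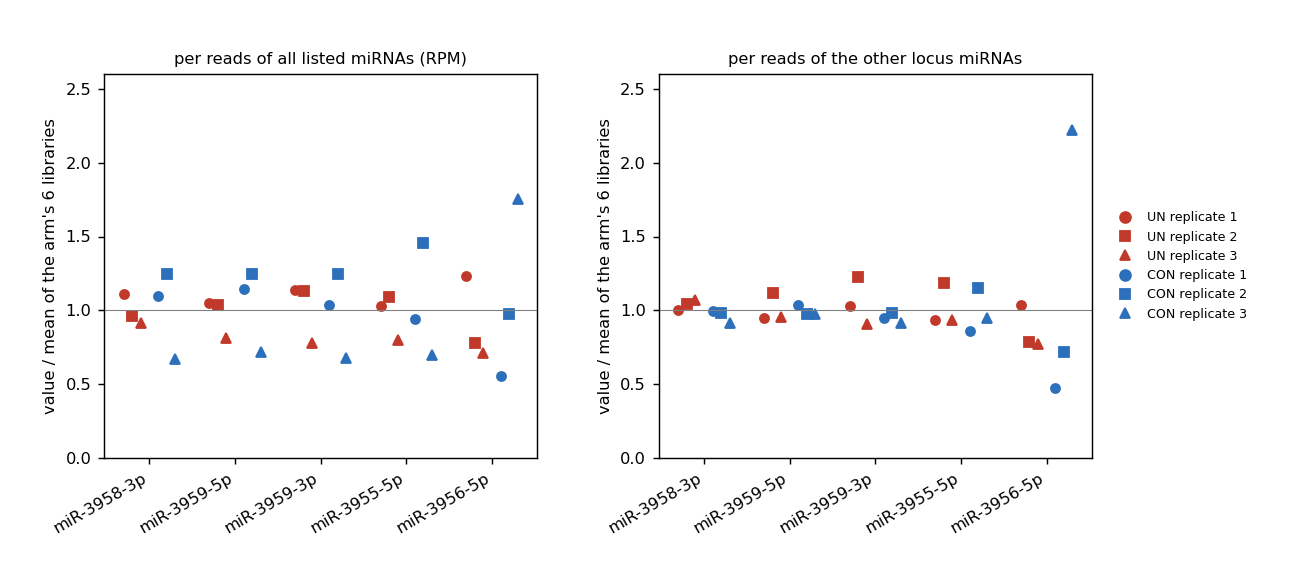
Level of 5 strands in each library relative to the mean of the 6 libraries, in RPM and per read of the other locus entries, UN left of CON. The points of miR-3958-3p, miR-3959-5p, miR-3959-3p and miR-3955-5p draw together on the locus scale, while CON replicate 3 of miR-3956-5p stands at 1.75 times the mean in RPM and 2.22 times on the locus scale.

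The 5 entries that tracked miR-3959-5p most closely over the 6 libraries, among 566 compared, were miR-376e-5p, miR-487a-3p, miR-329a-3p, miR-1185-5p and miR-376b-5p. Pearson's r of log2 TMM-scaled CPM was 0.951, 0.948, 0.948, 0.945 and 0.943. All 5 belong to the locus list, of which 78 entries had passed the filter. The values only describe 6 libraries, in each of which both strands share the depth and scaling. Likeness was not general among the strands past the filter, and the other locus entries beyond these 5 are not described here. Some of the strands had few reads, with 28 to 48 per library for miR-3958-5p and 36 to 79 for miR-3957-3p. The part of counting error in their r was not tested. With miR-3959-5p, r was 0.88 for miR-3959-3p, 0.81 for miR-3958-3p, 0.80 for miR-3955-3p and 0.63 for miR-3955-5p. It was 0.18 for miR-3958-5p, -0.03 for miR-3957-5p, -0.13 for miR-3957-3p and -0.80 for miR-3956-5p. miR-487a is also the next hairpin after miR-3959 along the chromosome, while miR-655, which lies just before miR-3959, was not among the 5. A link with position was not tested.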

How the data were processed

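Cleaned small RNA reads were mapped by the authors with Bowtie2 on a sheep assembly, and their list joins annotated miRNAs with predicted ones. The library kit in the labels is not the one in the paper. The deposited values, in a column named TPM, are the authors' RPM per 1000000 assigned reads. Values divided by the smallest value above 0 in a library gave whole reads for 100.0% of values (within 0.001 reads). log2(RPM + 1) was compared with limma 3.58.1 (trend, Benjamini-Hochberg adjustment) in R 4.3.3, after edgeR's filterByExpr on the reads (minimum count 10, minimum total 15), which kept 567 entries. Alternatives were edgeR 4.0.16 and DESeq2 1.42.0 on recovered reads, pseudocounts of 0.1 and 5 RPM, TMM scaling, removal of miR-143, no filter, a replicate block and leaving out each library. The limma and edgeR fits were run on simulated data with known changes. A set share of recovered changes was asked of edgeR but not of limma. Single values had exact permutation tests (scipy 1.17.1) and duplexes were folded with RNAcofold (ViennaRNA 2.7.2). Hairpins were placed by symbol in RefSeq (55 of 55 matched), in order only, because the build of the files is not clear. All 10 strands were named, with the 3 other locus entries of most reads and the 5 most alike. Members and lists were chosen with earlier results of these data known. The labels give no sequencing batch. Within each group no libraries were duplicates: a chi-square test of the reads of each pair of a group gave at least 437 per degree of freedom. Pairs across the groups were not tested in this way.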

Additional observations from a re-analysis of the deposited data

How the results depend on the processing

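With 3 libraries a group, exact tests could not go below p = 0.1, and strands of few reads carry wide counting error. Of the comparisons' own values 274 were an unchanged count of strands or moved less than the spread between replicates, and 5 did not. A move within that spread could include a change of sign. Some of the 274 could not have differed, since a replicate block leaves the ratios and differences of means as they are. The least number of reads asked of a hairpin was also met by every library. The count of strands lower in UN at an unadjusted p under 0.05 was 0, but 1 (miR-3956-3p) in limma with no filter, in edgeR with no filter and in DESeq2 with no filter, since the filter had removed that strand. With each library left out in turn, the log2 ratio of mean RPM of miR-3956-3p ran from -4.04 (without UN replicate 3) to -2.33, and that of miR-3956-5p per locus read from -0.76 to 0.55 (without CON replicate 3). Fits without the filter that left out libraries, or used a pseudocount of 0.1 RPM, TMM or a block, were chosen after seeing the data, and over all its alternatives miR-3956-3p had adjusted p of 0.21 to 1.00.

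Of single strands, 137 values kept their sign and 24 turned, none past a threshold. miR-3955-5p turned to 0.076 with TMM, 0.026 without miR-143, 0.13 in edgeR, 0.068 in edgeR with no filter and 0.14 in DESeq2 with no filter. miR-3959-5p turned to 0.037 with TMM, 0.088 in edgeR, 0.028 in edgeR with no filter and 0.095 in DESeq2 with no filter. miR-3955-3p turned to -0.0022 with a pseudocount of 5 RPM. Leaving out each library gave -0.27 to 0.24 for miR-3955-5p, -0.33 to 0.36 for miR-3955-3p, -0.52 to 0.22 for miR-3956-5p, -0.085 to 0.34 for miR-3958-5p, -0.23 to 0.21 for miR-3958-3p, -0.32 to 0.079 for miR-3959-5p and -0.18 to 0.25 for miR-3959-3p. The cause was not tested. Same-numbered UN and CON libraries correlated at -0.05, 0.13 and 0.20 in their deviations from the group means, so the numbers were not taken to pair fetuses. With a replicate block, 0 of the 9 strands past the filter had an unadjusted p under 0.05. With the block and no filter, miR-3956-3p did (unadjusted p = 0.0014, adjusted p = 0.56 by limma), as it did without the block. The block changed no call.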
